A study of Mus musculus with 3 samples.

Results

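Capillary endothelial cells (CapEC) of the resting Peyer's patch (PP) were described in the control library of a single-cell RNA sequencing study of mouse PP blood endothelium. PP are lymphoid organs of the small intestine wall. Their arteries feed a capillary mesh, and the capillaries drain into post-capillary venules, including the high endothelial venules through which lymphocytes leave the blood. Capillary endothelium exchanges solutes, lipids and fluid with the tissue, and it is thin, fenestrated in the gut and rich in receptors for VEGF. The high endothelial cells (HEC) downstream instead carry the mucosal addressin MAdCAM1, the product of Madcam1 and a ligand of the lymphocyte integrin α4β7.

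The members were 817 of the 2469 blood endothelial cells of the control library, which is 33.1% (95% Clopper-Pearson interval 31.2 to 34.99, for counting error only). The library held 6080 barcodes and 17341398 unique molecular identifiers (UMIs), and 5473 cells passed the limits on genes, UMIs and mitochondrial UMIs. Members were chosen on their own UMI counts, with at least 3 UMIs in all of Scgb3a1, Prom1, Unc5b, Car4 and Hcar1. Cells with 2 or more UMIs of the set Selp, Adgrg6, Cytl1 and Fxyd6, of the arterial pair Gja5 and Bmx, or of the lamina propria set Aqp7, Kcna5 and Timp4 were left out, and these gates removed 105 of the 922 blood endothelial cells with enough marker UMIs. The remaining 1652 blood endothelial cells were the comparison, termed other blood endothelium here. All 3 libraries of the series held 12480 barcodes.

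The study asked how the transcription factors COUP-TFII (Nr2f2) and NKX2-3 set addressin expression in the endothelium. The control library was labelled wild-type (WT) of strain C57BL/6, and the 2 EC-iCOUPOE libraries came from CDH5(PAC)CreERT2;COUP-TFIIOE/OE mice, in which tamoxifen switches on COUP-TFII in cells that use the Cdh5 promoter, an endothelial promoter of blood and lymphatic vessels alike. All mice were 6 to 10 weeks old, the labels give 14 to 19 days from tamoxifen to the sort for EC-iCOUPOE and control mice alike, and males and females were processed together. The study profiled both Cre-negative controls given tamoxifen and WT mice, and which of them the library labelled WT held was not stated, nor was the number of mice per library, so all values below describe 1 control library, without a test and without a replicate check. Intervals are 95% intervals that cover counting error only, and levels are CPM, the pooled UMIs of a gene scaled to a common total per population.

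The 2 promoters below are shown because Scgb3a1 led the markers of these capillaries and because 29 of the 817 cells held 96.6% of the members' UMIs of Madcam1, the addressin gene of the study. Each sequence holds the 250 bases before the RefSeq transcription start on GRCm38.p6, written 5′ to 3′ along the gene. Capitals mark TGACCC, letters of a COUP-TFII site, and AAGTG, a core of NKX sites, on either strand (GGGTCA and CACTT on the other strand). The 2 motifs did not overlap in these windows.
Scgb3a1, chr11:49663345-49663594, plus strand: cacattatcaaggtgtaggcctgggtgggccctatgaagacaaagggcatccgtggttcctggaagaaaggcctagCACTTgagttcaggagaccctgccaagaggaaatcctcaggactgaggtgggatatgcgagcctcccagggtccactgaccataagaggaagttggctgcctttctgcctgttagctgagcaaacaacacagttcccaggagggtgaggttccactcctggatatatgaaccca
Madcam1, chr10:79664309-79664558, plus strand: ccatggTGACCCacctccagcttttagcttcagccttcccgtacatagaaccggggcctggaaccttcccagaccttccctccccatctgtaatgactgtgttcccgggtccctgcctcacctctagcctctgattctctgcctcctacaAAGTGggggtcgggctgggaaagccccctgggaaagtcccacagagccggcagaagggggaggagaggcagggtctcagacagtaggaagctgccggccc
TGACCC occurred once upstream of Madcam1, beginning 244 bases before the start, and AAGTG occurred once, 100 bases before it. The Scgb3a1 window held AAGTG once, on the opposite strand 174 bases before the start, and no TGACCC. Of 32851 windows of this length in the table, 11.6% held TGACCC, 40.7% held AAGTG and 4.95% held both. Bases farther upstream were not examined, and the window was not chosen to hold the Madcam1 element that the study tested in reporters. The study's reporter without that element began upstream of this window, so by the paper's positions the element lies farther from the start. Whether both use the same start was not checked. These matches describe letters only, and binding was not measured here.

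The genes behind the gate came first, as a description of what chose the cells. Scgb3a1, which encodes a small secreted protein of the secretoglobin family (chr11:49663610-49665118 on GRCm38, GENCODE vM21), had 6693 UMIs in members, or 3731 CPM (3642 to 3821), and 147 CPM in the other blood endothelium. It made up 82.6% of all marker UMIs and was present in 776 of the 817 cells. With every cell thinned to 1000 UMIs it was seen in 86.7% of members, 12.2% of the other blood endothelium and 0.609% of fibroblast-like background cells, whose median depth was 2757 UMIs against 1650 in members. Scgb3a1 therefore carried the selection, and each of the other markers was seen in a minority of the cells.

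Unc5b, a netrin receptor of endothelial tip and arterial-side cells (chr10:60762593-60831581), had 520 UMIs in 333 cells. Prom1, the membrane glycoprotein prominin 1 (chr5:43993620-44102032), had 299 UMIs in 226 cells. Car4, a carbonic anhydrase anchored to the luminal face of capillaries (chr11:84957786-84966044), had 313 UMIs in 151 cells. Hcar1, the lactate receptor (chr5:123876736-123880020), had 276 UMIs in 233 cells. Of the 817 members, 232 carried UMIs of 1 of the 5 markers, 323 of 2, 209 of 3, 51 of 4 and 2 of all 5, and 220 cells were chosen on Scgb3a1 alone. Without counting Scgb3a1, 218 cells would still have reached 3 UMIs.

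Marker UMIs per member ran from 3 to 57 with a median of 8, and 119 cells sat at the threshold of 3. With cells of 5 or more Madcam1 UMIs set aside, Esm1 stood at 137 CPM (92.2 to 195) in the 113 cells with 3 marker UMIs and at 98.2 CPM (64.7 to 143) in the 140 ungated cells with 2. Nrp1 stood at 742 CPM (633 to 866) and 578 CPM (492 to 675) in the same cells, and Fabp4 at 6941 CPM (6597 to 7299) and 7034 CPM (6724 to 7355). Mgp stood at 228 CPM (169 to 300) and 334 CPM (270 to 410). The counting intervals on both sides of the threshold overlapped for these 4 genes. Farther from it they parted, since ungated cells with no marker UMI stood at 57.5 CPM (37.2 to 84.8) for Esm1 and 704 CPM (627 to 787) for Mgp. Cxcl12, Sparcl1, Nkx2-3 and Plvap parted as well, but Rgcc and Gja4 did not. Rgcc stood at 264 CPM (201 to 342) with 3 marker UMIs and 255 CPM (210 to 307) with none. Gja4 stood at 733 CPM (624 to 856) and 733 CPM (655 to 818).

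**Figure D1:**
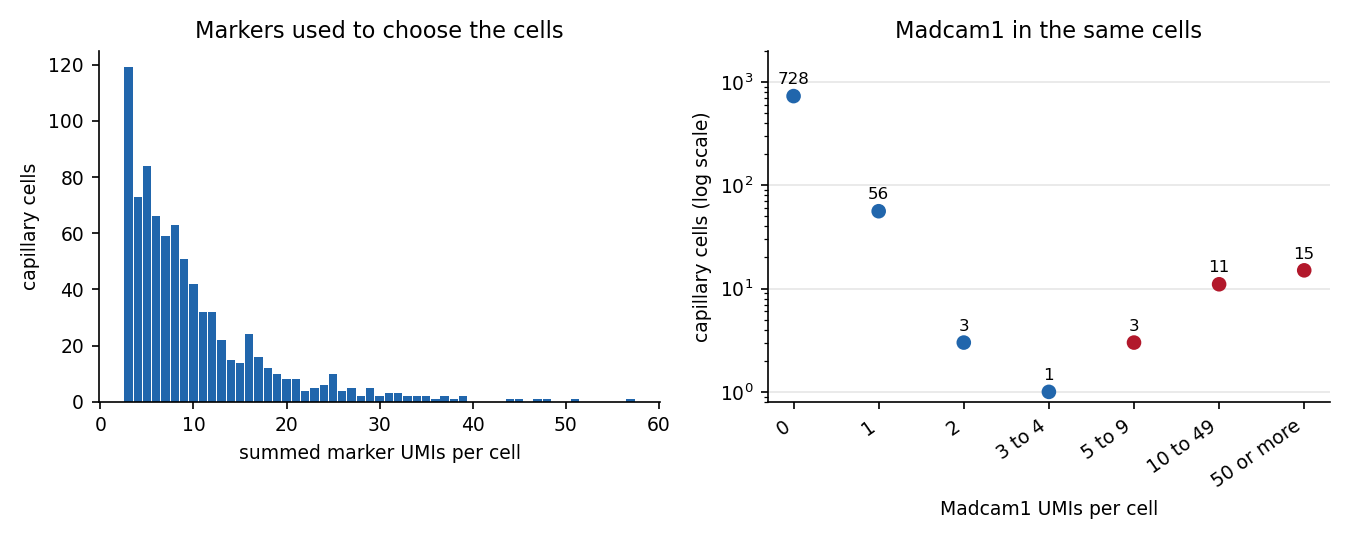
Left, number of capillary cells (y axis) by summed UMIs of the 5 selection markers per cell (x axis), with 119 cells at the threshold of 3 and a highest value of 57. Right, number of the same cells on a log scale by Madcam1 UMIs per cell, with 728 cells at 0 and the 29 cells with 5 or more in red, of which 15 held 50 or more.

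The UMIs of Madcam1 were spread very unevenly over members. No Madcam1 UMI was found in 728 cells, 1 in 56 cells, and 5 or more in 29 cells, which together held 1875 of the 1940 Madcam1 UMIs of the members. These 29 cells had a median of 8048 UMIs, against 1597 in the other 788, and stood at 8025 CPM (7666 to 8396) for Madcam1, whereas the 788 stood at 41.7 CPM (32.1 to 53.1). They also held 97.8% of the Glycam1 UMIs of the members, 97.1% of those of the fucosyltransferase gene Fut7, 93.3% of those of Ackr1 and 64.4% of those of Nr2f2. Their Scgb3a1 level was 920 CPM (801 to 1052), below the 4151 CPM (4051 to 4254) of the rest and above the 9.91 CPM (6.69 to 14.1) of cells with 5 or more Madcam1 UMIs and fewer than 3 marker UMIs (termed Madcam1-gated below). The share of these 29 cells that are doublets was not measured, and Scrublet marked 1 of them. The values of HEC genes named below are given with and without them. The 29 cells are then left out of the members only, and the other blood endothelium keeps its Madcam1-gated cells. Lower ratios of genes that are high in Madcam1-gated cells follow in part from that choice.

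Members held few transcripts of lymphocytes, myeloid cells, epithelium and enteric glia. Pericyte, smooth muscle and haemoglobin transcripts were more abundant in members than in the other blood endothelium, mostly in few cells. Of 11 lymphocyte genes 3 were detected, with 3 UMIs in all and Ptprc and Cd3e at 0, and of 6 myeloid genes 2 were detected, with 12 UMIs in all, Fcer1g the most abundant and Lyz2 and Tyrobp at 0. Epithelial genes gave 5 UMIs, with Epcam at 0, enteric glia genes gave 22 UMIs over all 4 genes, and lymphatic genes gave 88, of which 83 were Flt4, with Mmrn1 and Reln, which the selection itself kept low, at 0. All 8 fibroblast genes were seen at a summed 127 CPM in members and 113 CPM in the other blood endothelium, Col3a1 the most abundant in members, and 5 of these genes were also limited by the selection. The whole list of 9 pericyte and smooth muscle genes summed to 388 and 253 CPM, led by Acta2, and 10 cells held 71.7% of the 697 UMIs in members. Haemoglobin and Alas2 transcripts summed to 1790 and 847 CPM, led by Hbb-bs, and 2 member cells held 3197 of their 3212 UMIs. Without cells that held 2 or more UMIs of other cell types, 516 genes were at least 2-fold higher in members and 523 lower, and without cells of 10 or more haemoglobin UMIs 497 and 492, near the counts with all cells given next.

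Against the other blood endothelium, the members held more of some capillary and tip cell genes such as Esm1, of several lipid uptake and basement membrane genes, and less of venular, addressin and chemokine genes. Among 9104 genes with at least 50 UMIs in both populations together, 497 were at least 2-fold higher in members (5.46%) and 496 at least 2-fold lower (5.45%), with genes used by the gates left out. The median log2 ratio of all genes compared was 0.18. With TMM scaling, which sets the bulk of genes near 0 and shifted each log2 ratio by -0.20, 274 genes were higher and 628 lower. The other blood endothelium was a mixture in which Madcam1-gated cells gave 27.5% of the cells and 46.4% of the UMIs, so that a ratio moves with the make-up of that mixture.

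**Figure D2:**
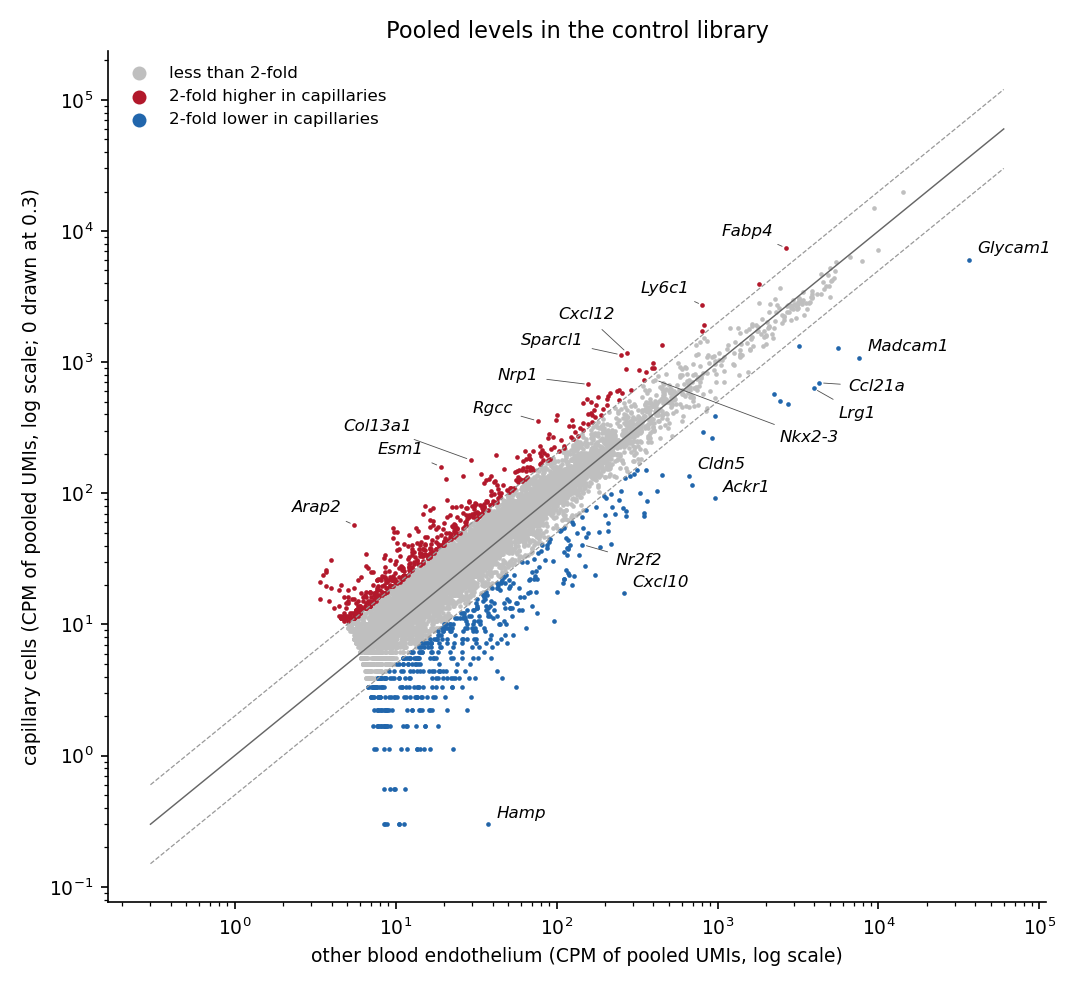
Pooled levels of the 9104 genes compared, in CPM on log axes, in the other blood endothelium (x axis) and in capillary cells (y axis), 1 point per gene. The 497 genes at least 2-fold higher in capillary cells are red and the 496 at least 2-fold lower are blue, the solid line marks equal levels and the dashed lines 2-fold differences.

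Of the genes ranked by counting interval, the leading difference was Arap2, a GTPase-activating protein for Arf6 (chr5:62602445-62766159), with 103 UMIs in members and 36 elsewhere, a log2 ratio of 3.38 (2.82 to 3.97). Esm1, the secreted proteoglycan endocan that marks tip cells and angiogenic capillaries (chr13:113209659-113218098), followed with 160 CPM (142 to 180) in members and 19.0 CPM elsewhere, a log2 ratio of 3.07 (2.76 to 3.39). By subset, Esm1 stood at 109 CPM in lamina propria-gated cells, 71.6 CPM in ungated low-marker cells, 42.1 CPM in arterial-gated cells, 4.30 CPM in Selp-gated cells and 0.661 CPM in Madcam1-gated cells. Arap2 stood at 57.4 CPM in members, 24.2 CPM in low-marker cells, 21.8 CPM in lamina propria-gated cells (5 UMIs) and 7.65 CPM (0.93 to 27.6) in arterial-gated cells, the last near the 6.99 CPM of fibroblast-like cells. Both genes were thus highest in members among these subsets and close to absent in Selp-gated and Madcam1-gated cells. Esm1 was seen in 15.8% of thinned members and 0.0406% of thinned fibroblast-like cells, so most members showed no UMI of it at 1000 UMIs.

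Further genes of the leading 20 included Col13a1, a transmembrane collagen, at 179 CPM against 29.3 CPM, and Rgcc, a regulator of the cell cycle and of endothelial signalling, at 356 CPM against 76.5 CPM. Cxcl12, the chemokine ligand of CXCR4, stood at 1178 CPM against 274 CPM, a log2 ratio of 2.10 (2.01 to 2.19), and Cxcr4 itself, from the tip cell list, at 69.1 CPM against 14.9 CPM, a log2 ratio of 2.22 (1.82 to 2.61). Ligand and receptor were therefore both higher in the capillary population than in the other blood endothelium. Fibroblast-like cells of the same library held more Cxcl12 than members did, at 4637 CPM, and it was seen in 86.7% of them against 64.7% of members when thinned. The most similar subsets were close to members for both genes, with Cxcl12 at 1066 CPM in lamina propria-gated, 889 CPM in low-marker and 819 CPM in arterial-gated cells and Cxcr4 at 61.2, 49.3 and 57.4 CPM. Rgcc and Sparcl1 were at 529 and 1171 CPM in lamina propria-gated cells, above their levels in members for Rgcc and near them for Sparcl1. Sparcl1, a matricellular protein, had a log2 ratio of 2.17 (2.07 to 2.26), and Nrp1, the neuropilin that binds VEGF and semaphorins, 2.10 (1.98 to 2.22). The rest of the leading 20 were Pcp4l1, Gm12002, Deup1, Kctd12b, Hecw2, Tril, Chrm2, Rhbdl2, Thrsp, Prdm1, Mpped2, Gpx8 and Rapgef4, with log2 ratios from 2.20 to 2.97.

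In the VEGF list, 3 of 8 genes compared were higher in members and 1 was lower, with a median log2 ratio of -0.50. Among all genes, 5.46% were higher and 5.45% lower, with a median of 0.18. The list median was 0.58 in thinned cells and 1.18 in male cells. In those settings 5087 and 1049 genes reached the count minimum, against 9104, so these medians need not cover the same genes. The receptor genes Kdr and Flt4 had log2 ratios of 1.19 and 1.35, from 1048 and 83 UMIs in members, beside Nrp1. The ligand gene Vegfb had a log2 ratio of -1.77 (-2.60 to -1.03), with 16 UMIs in members. Among the genes called, the receptors and neuropilin were thus higher and the ligand lower. In the list of capillary resident progenitor (CRP) and tip cell genes, 4 of 10 were higher, namely Esm1, Cxcr4, Nid2 and Lamb1, and Apln, the apelin ligand of tip cells, was at 7 UMIs in members and 51 elsewhere, with a counting interval of the log2 ratio from -2.39 to 0.14. Angpt2, Pgf and Plaur of the same list had log2 ratios of -0.95, -0.87 and -0.77, short of the 2-fold call.

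Genes of fatty acid handling, by which capillaries take up lipid and pass it to the tissue, were the list with 9 of 20 genes higher and 2 lower (median log2 ratio 0.49, with 5.46% of all genes called higher). Fabp4, a fatty acid binding protein, had 13310 UMIs in members, or 7419 CPM (7293 to 7546), against 2662 CPM elsewhere, a log2 ratio of 1.48 (1.45 to 1.51). It was near equally high in lamina propria-gated cells at 7484 CPM, and stood at 6118 CPM in low-marker cells and 648 CPM in Madcam1-gated cells. Cd36, a fatty acid translocase, had a log2 ratio of 1.36 (1.24 to 1.48), Fabp5 1.35 (1.24 to 1.46) and Mgll, a monoglyceride lipase, 1.71 (1.62 to 1.81). Tcf15, which drives lipid uptake genes in endothelium together with MEOX2, was higher at 1.55 (1.34 to 1.75), whereas Meox2 was lower at -1.76 (-2.26 to -1.296). The 2 partner genes therefore differed in direction. Gpihbp1, which anchors lipoprotein lipase in the capillary lumen, had a log2 ratio of 1.16 (0.97 to 1.36) but stood at 935 CPM in the 81 lamina propria-gated cells against 196 CPM in members, and its ratio was -0.18 when the subsets were given equal weight. Scarb1, Slc27a3 and Plin2 were the other genes higher.

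Basement membrane and matrix genes were higher for 9 of 27 and lower for 4, with a median log2 ratio of 0.79. For all genes these were 5.46%, 5.45% and 0.18. The collagen IV genes Col4a1 and Col4a2, which form the network of the vessel basement membrane, stood at 579 and 499 CPM in members against 215 and 163 CPM elsewhere. They were followed by the laminin genes Lama4 (log2 ratio 1.59), Lamb1 (1.41) and Lama3 (1.38) and by Nid2, Sparc, Sparcl1 and Igfbp3. Arterial-gated cells were lower for both collagen genes, at 207 and 172 CPM. Neither gene was among the leading 15 higher genes of members against lamina propria-gated or low-marker cells. The 4 genes lower in members were Bgn, Mgp, Emilin1 and Col18a1. In male cells alone the log2 ratios of Mgp and Col18a1 were 1.33 and 0.36, from 27 members with 61571 UMIs over all genes.

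Notch signalling sets the arterial fate of endothelium. The median log2 ratio of 16 genes of the pathway was 0.69, against 0.18 for all genes. Of the 16, 5 were higher in members and none lower, against 5.46% and 5.45% of all genes. Those higher were the receptor Notch4 (1.47, 1.14 to 1.80), the ligand Dll4 (1.32, 1.10 to 1.55) and the target genes Hey2 (1.97, 1.13 to 2.82), Hey1 (1.35, 1.16 to 1.55) and Hes1 (1.16, 1.00 to 1.31). The median fell to 0.16 with subsets of equal weight and to -0.16 with cells thinned to 1000 UMIs before the gates. The thinned median covers only genes that reached the count minimum there. Hey1 stood at 202 CPM (182 to 224) in members, 348 CPM in arterial-gated cells, 292 CPM in low-marker cells, 201 CPM in lamina propria-gated cells, 19.4 CPM in Selp-gated cells and 5.29 CPM in Madcam1-gated cells. Hes1 stood at 313 CPM in members, 403 CPM in low-marker cells and 42.6 CPM in Madcam1-gated cells. Members were thus below or near the arterial and low-marker cells and above the venular and high endothelial cells.

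In the arterial list, 4 of 14 genes were higher and 3 lower, against 5.46% and 5.45% of all genes. The median log2 ratio of the list was 0.29, against 0.18 for all genes. This list median was below 0 with 5 or more marker UMIs required (-0.15) and with no UMI allowed in each exclusion gate (-0.14). It was also below 0 without cells holding other cell types' UMIs (-0.05), with means over cells (-0.61) and with subsets of equal weight (-0.78). In thinned cells it was -1.93, over genes that reached the count minimum there. Hey2, the ephrin gene Efnb2 (1.44), the gap junction gene Gja4 (1.17, but -0.19 in thinned cells) and the transcription factor gene Sox17 (1.09) were higher. The calls of Gja4 and Sox17 ended with TMM scaling. Gkn3, a gene of mature arteries, had 2 UMIs in members and 149 elsewhere, and Mgp and Clu were lower at -1.45 and -2.15. Clu was at -3.66 without the 29 cells with 5 or more Madcam1 UMIs. Cldn5, the tight junction protein of endothelium, stood at 137 CPM in members against 693 CPM in arterial-gated cells and 1742 CPM in Selp-gated cells. The genes of the list therefore lay on both sides, and Mgp was at 1.33 in male cells, a comparison with only 27 members.

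**Figure D3:**
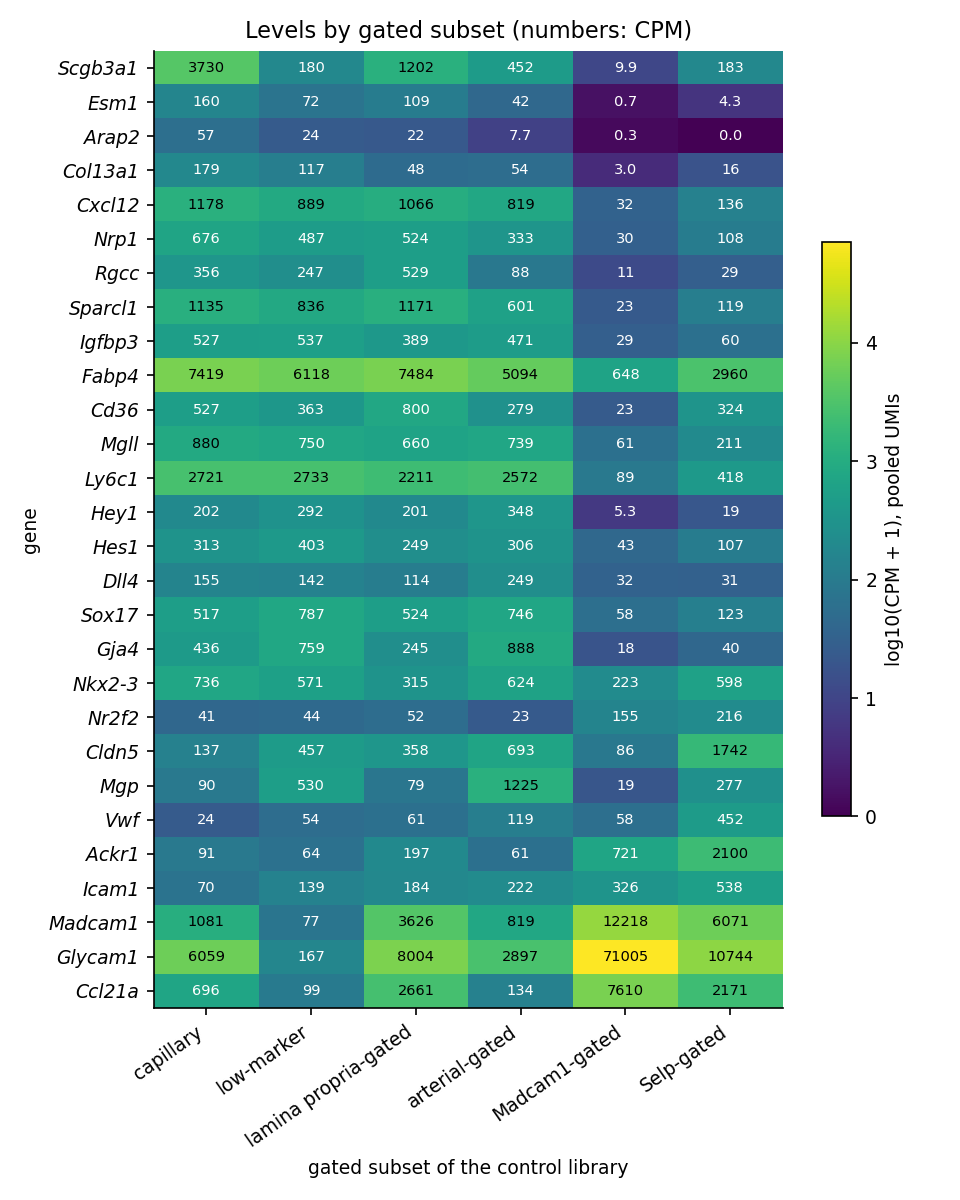
CPM of selected genes (rows) in the members and in 5 gated subsets of the control library (columns), with colour on a log10(CPM + 1) scale and the CPM printed. Scgb3a1 selects the capillary column, Cldn5, Ackr1 and Vwf peak in Selp-gated cells, and Madcam1, Glycam1 and Ccl21a peak in Madcam1-gated cells.

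Among 45 transcription factor genes of endothelium, 7 were higher in members and 4 lower (median log2 ratio 0.43). Of all genes 5.46% were higher and 5.45% lower (median 0.18). Hlx, a homeobox gene of the gut mesenchyme and endothelium, stood at 119 CPM against 35.4 CPM, and Ets2, Mef2c, Tbx3 (-0.0602 in thinned cells), Ebf1, Tcf15 and Sox17 were the others higher. Nkx2-3, the homeobox gene of gut endothelium on which MAdCAM1 depends, was at 736 CPM (697 to 777) in members against 407 CPM elsewhere, a log2 ratio of 0.85 (0.76 to 0.95), below the 2-fold call. It stood at 624 CPM in arterial-gated, 598 CPM in Selp-gated, 571 CPM in low-marker, 315 CPM in lamina propria-gated and 223 CPM in Madcam1-gated cells. Nr2f2, which encodes COUP-TFII and sets venous identity, was at 40.7 CPM (31.9 to 51.2) in members against 145 CPM elsewhere, a log2 ratio of -1.83 (-2.20 to -1.49). Without the 29 cells with 5 or more Madcam1 UMIs, Nr2f2 was at 16.7 CPM (10.9 to 24.4) and its log2 ratio was -3.12. The capillary population thus held much Nkx2-3 and little Nr2f2. Its relative Nr2f1 had 4 UMIs in members, and Meox2 and Irx3 were also among the genes lower.

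Among lists with more than 1 gene compared, those of venular and high endothelial genes had the lowest medians. Of 12 post-capillary venule (PCV) genes compared, 9 were lower and none higher (median log2 ratio -2.17, with 5.45% of all genes called lower), and of 10 HEC genes, 8 were lower and none higher (median -2.10, and -3.62 without the 29 cells). The adhesion, addressin and chemokine list had 18 of 32 genes lower and 4 higher (median -1.78), the 4 being Cxcl12, Podxl, Ccl25 (-0.16 in male cells) and Ackr3. Ackr1, the chemokine receptor that marks venules, was at 91.4 CPM in members against 962 CPM elsewhere, a log2 ratio of -3.40 (-3.63 to -3.17). By subset, Ackr1 was at 2100 CPM in Selp-gated, 721 CPM in Madcam1-gated, 197 CPM in lamina propria-gated, 64.1 CPM in low-marker and 61.2 CPM in arterial-gated cells. Without the 29 cells Ackr1 was at 7.05 CPM (3.52 to 12.6) in members and its log2 ratio was -7.09. Cxcl10, an interferon-induced chemokine, had 31 UMIs against 1714, a log2 ratio of -3.93 (-4.49 to -3.42). Icam1 and Vcam1, the ligands of leukocyte integrins, had log2 ratios of -2.31 and -2.16, and Vwf, which is released from endothelial storage granules, -2.86. Without the 29 cells Icam1 was at -3.08, Vcam1 at -2.40, Vwf at -3.57 and Cxcl10 at -4.59.

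Madcam1 itself (chr10:79664559-79668537) was at 1081 CPM (1034 to 1131) in members and 7619 CPM elsewhere, a log2 ratio of -2.82 (-2.88 to -2.75), and without the 29 cells its log2 ratio was -7.52. Glycam1, a mucin that carries sulfated sugars for L-selectin, had a log2 ratio of -2.59 (-2.62 to -2.57), and -7.91 without the 29 cells. The members left stood at 41.7 CPM for Madcam1 and 152 CPM for Glycam1, near the 36.6 and 122 CPM of fibroblast-like cells. These levels are thus near background, and the ratios without the 29 cells are set in part by the Madcam1 limit that chose those cells. Ccl21a, the chemokine that draws T cells, had -2.63 (-2.71 to -2.54), and -5.30 without them, although reads of its near-identical copies could not be separated. Fibroblast-like cells held Ccl21a at 13186 CPM, against 109 CPM in the members left. The sialyltransferase gene St6gal1 had 8 UMIs in members and 122 elsewhere, a log2 ratio of -2.07, and -2.87 without the 29 cells. Fut7 was at 39.0 CPM against 186 CPM, a log2 ratio of -2.26. Without the 29 cells it was at 1.28 CPM, from 2 UMIs, with a log2 ratio of -7.18. Of the leading 20 lower genes, Hamp had no UMI in members and 244 elsewhere, a log2 ratio of -4.48 computed at a floor of 3 UMIs over the members with a counting interval that reached up to -4.17, and Lbp, Lrg1, Ctsh, Gm10851, Gkn3, C1rl, Ubd, Tgfbi, Cartpt, Gal, Fcer1g, Fgl2 and Serpina1b made up the rest beside those given above.

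**Figure D4:**
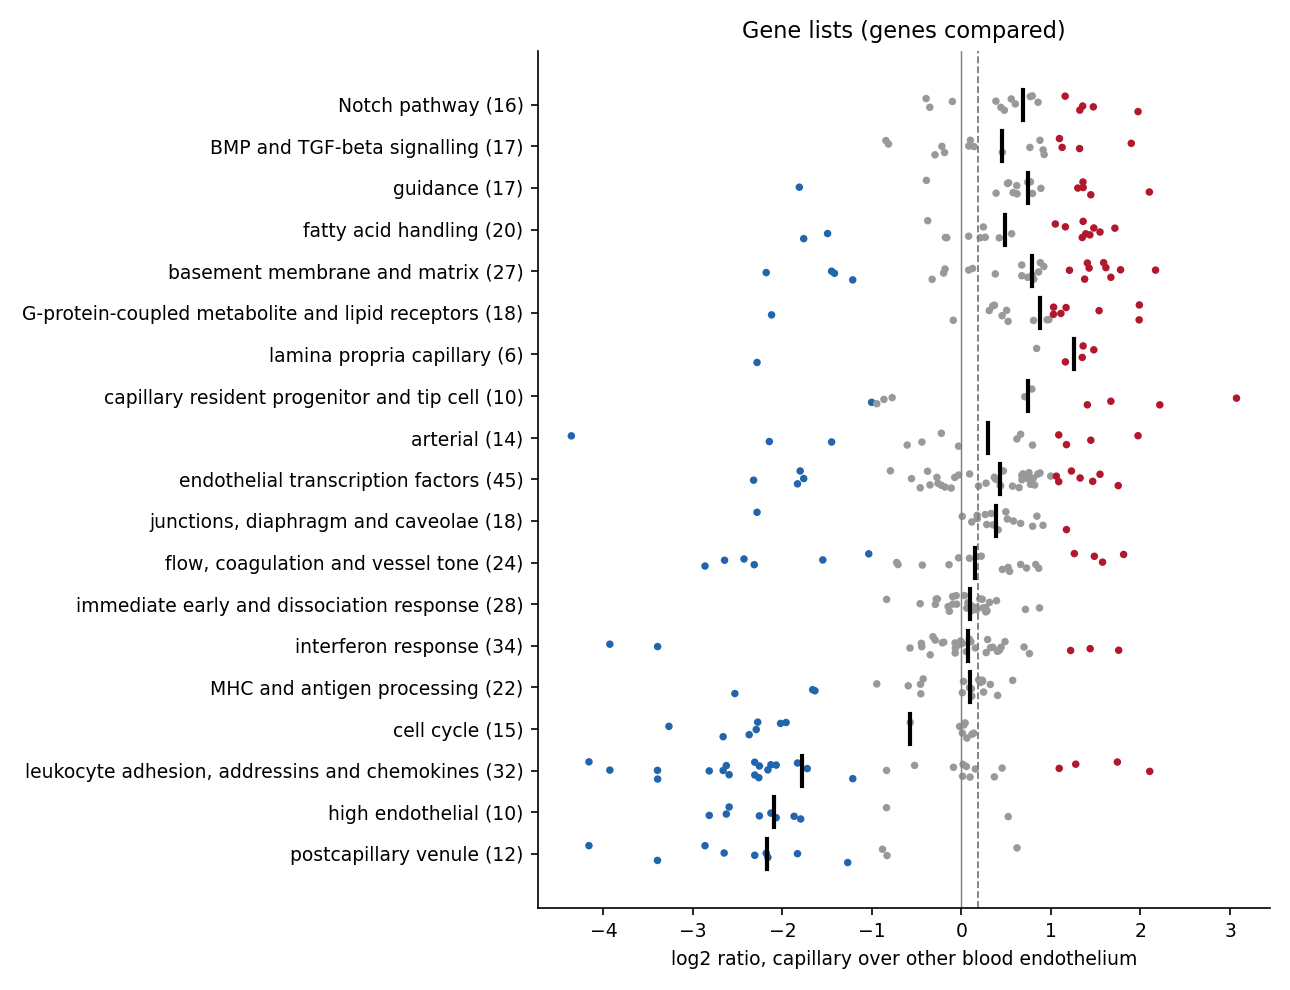
Log2 ratio of capillary over other blood endothelium (x axis) for each gene compared (points) in gene lists (rows, number of genes compared in parentheses), with 2-fold higher genes red and 2-fold lower genes blue. Black bars mark list medians and the dashed line the median of all genes at 0.18, and the lists of venular, high endothelial and adhesion genes lie farthest left.

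Other signalling lists showed smaller sets of called genes, set here against 5.46% of all genes higher and 5.45% lower. BMP and TGF-beta genes were higher for 4 of 17 and lower for none, with a median of 0.46. In thinned cells the median was -0.01, over genes that reached the count minimum there. Those higher were the inhibitors of differentiation Id3 and Id4, the receptor Tgfbr2 (1.32, 1.19 to 1.45) and the ligand Tgfb2. Id3 and Tgfb2 fell below the 2-fold limit with TMM scaling. Guidance genes, which steer axons and vessel sprouts, were higher for 5 of 17, namely Nrp1, Efnb2, Sema7a, Efna1 and Sema6d, and Slit2 was lower. Of 18 G-protein-coupled receptors for metabolites, lipids and peptides, 7 were higher, among them P2ry6 and Tbxa2r at 1.99 each and Adgrl4 at 1.54, and Gpr182, at 26.2 CPM against 114 CPM, was lower. Gpr182 had a log2 ratio of -2.12, and -3.15 without the 29 cells with 5 or more Madcam1 UMIs.

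Genes of vessel tone and clotting were divided, with 4 of 24 higher and 6 lower, against 5.46% and 5.45% of all genes. Their median was 0.16, and -0.04 with TMM scaling. Ednrb, the endothelin receptor that clears endothelin, had a log2 ratio of 1.81 (1.47 to 2.16), the plasminogen activator gene Plat 1.58, thrombomodulin (Thbd) 1.48 and the angiotensin-converting enzyme gene Ace 1.26. Those lower included Vwf, Tfpi, Tfpi2, Ptgs1 and Gucy1a1. Junction and caveola genes were called for 2 of 18, Gja4 higher and Cldn5 lower. The call of Gja4 ended in thinned cells and with TMM scaling. Plvap, which forms the diaphragms of fenestrae, was the most abundant of the list with 6563 UMIs and a log2 ratio of 0.58. The Tie and apelin list had 1 of 6 genes called, Apln, whose counting interval crossed 0 and whose log2 ratio was 0.41 without low-marker cells.

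For retinoid and aryl hydrocarbon receptor genes, 3 of 11 were higher and 3 lower, against 5.46% and 5.45% of all genes. Rbp7, a retinol binding protein, had a log2 ratio of 1.73 (1.53 to 1.94), Cyp26b1, which degrades retinoic acid, 1.76 (1.495 to 2.02) and the retinal reductase gene Dhrs3 1.29, while Rdh10, which makes retinal, the retinol importer gene Stra6 and Cyp1b1 were lower. Rdh10 and Stra6 had log2 ratios of -1.12 and -2.32. Without the 29 cells with 5 or more Madcam1 UMIs they had -2.04 and -7.44, set in part by leaving those cells out of the members only. With the 29 cells included, Stra6 had 40 UMIs in members. Genes of one pathway thus lay on both sides. Of 135 genes whose symbols begin with Slc, 11 were higher and 9 lower, near the share of all genes, and of 22 ABC transporter and aquaporin genes 1, Aqp11, was higher and 3, among them Abca2 and Abcg2, were lower.

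Interferon response genes were called for 5 of 34, with Ly6c1 (1.76), Ly6a and Rsad2 (-0.30 in thinned cells) higher and Cxcl9 and Cxcl10 lower, and the median was 0.07. The shares of all genes were 5.46% higher and 5.45% lower. Of 22 genes of MHC and antigen processing none was higher, and Cd74 (1.16 in male cells), H2-Aa and H2-Ab1 of class II were lower. In the list of immediate early genes, which rise when cells are dissociated, none of 28 was called (median 0.09). Of 15 cell cycle genes, 7 were lower and none higher, with a median of -0.57. In thinned cells the median was 0.26, over genes that reached the count minimum there. Mki67 was at 5 UMIs in members against 94 elsewhere and Top2a at 4 against 92, and the summed level of the list was 1005.5 CPM against 1071 CPM, with Tubb5 giving 1382 of the 1804 UMIs in members.

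Of the most similar subsets, lamina propria-gated cells were 81 cells, arterial-gated cells 86 and low-marker cells 566. Against lamina propria-gated cells, 5.97% of 5374 genes compared were higher in members and 2.16% lower. Igfbp4 (log2 ratio 1.41, 1.14 to 1.69), Ace, Tgfbr2, Col13a1 and Nkx2-3 (1.23, 0.88 to 1.59) were among the leading 15 higher genes, and Gpihbp1 (-2.25, -2.50 to -2.00), Meox2, Ccl21a, Madcam1 and Apoe among the leading 15 lower. Hbb-bs, Hba-a1, Hba-a2 and Hbb-bt led the higher genes here and against arterial-gated cells, from UMIs almost all in 2 member cells. Lamina propria-gated cells held Madcam1 at 3626 CPM, Glycam1 at 8004 CPM and Fut7 at 127 CPM. The part of such high endothelial transcripts in this comparison was not tested. Against arterial-gated cells, 5.1% of 5415 genes were higher and 2.92% lower, with Rgcc (2.02, 1.42 to 2.68), Hlx, Cd300lg, Ctla2a, Col4a1 and Col4a2 higher and Mgp (-3.77, -4.05 to -3.49), Fbln5, Stmn2, Dkk2, Tmem100 and Vegfc lower. Fbln5 organises elastic fibres and Mgp is a matrix protein of arterial walls.

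Against low-marker cells, only 0.752% of 6515 genes were higher and 1.53% lower. Esm1 (1.16, 0.79 to 1.54), Thrsp (1.19, 0.85 to 1.53), Arap2 (1.25, 0.62 to 1.93) and Tnnt1 were among those higher. Glycam1, Madcam1, Lrg1, Ccl21a, Fut7 and Ubd also led that list, but cells with 5 or more Madcam1 UMIs had been taken out of the low-marker subset and not out of the members, and the members' UMIs of Madcam1, Glycam1 and Fut7 lay almost entirely in the 29 cells. Gkn3, Mgp, Cldn5, Fbln5, Stmn2 and Dkk2 were lower, with log2 ratios of -6.13, -2.56, -1.74, -1.64, -1.66 and -1.98. Low-marker cells had a median of 1 marker UMI and of 1591 UMIs in all, against 8 and 1650 in members, and how far the selection divided one kind of cell by its count of marker UMIs was not tested.

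Members were also divided by each selection marker, as a description only, since a cell without 1 marker had to reach 3 UMIs through the others. Depth moved with the markers, with a median of 2094.5 UMIs in cells with Prom1 against 1496 without, 1946 against 1482 for Unc5b, 1764.5 against 1531.5 for Hcar1 and 1730.5 against 1576 for Car4, but 1565 against 2167 for Scgb3a1, and its part in these values was not tested. The 29 cells with 5 or more Madcam1 UMIs are left out of the values in the next 2 paragraphs, and all cells come from the same library. The 146 members with a Car4 UMI had 1.91 more log2 units of Rgcc (1.68 to 2.15) than the 642 without, 1.59 more of Gpihbp1 (1.27 to 1.91) and 1.12 more of Col4a1 (0.92 to 1.32), and Ramp3, Thbs1 and Aplnr were also among the leading 8. Their summed arterial list was at 3248 CPM against 4838 CPM, a log2 ratio of -0.57 (-0.67 to -0.48). Pericyte and smooth muscle genes gave 20 UMIs in them and 601 in the rest. In these counts the Car4 cells held more Rgcc, Gpihbp1, Aplnr and Col4a1 and a lower summed arterial list. Their summed high endothelial list was at 626 CPM against 480 CPM, a log2 ratio of 0.38 (0.14 to 0.62).

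The 324 members with an Unc5b UMI had more Mgp (1.46, 0.95 to 1.99), Stmn2 (1.12, 0.74 to 1.52) and Tmem100 (1.28, 0.67 to 1.92) than the 464 without, and their arterial list was at 5071 CPM against 4063 CPM. The arterial list was also higher with Prom1, at 5196 CPM in 222 cells against 4209 CPM, and with Hcar1, at 4955 CPM in 230 cells against 4345 CPM. Rgcc was lower in the cells with Prom1 (-1.25, -1.57 to -0.95), and Enpp2 was lower in cells with either. Smooth muscle genes were higher with all 3 of these markers, at 489 CPM with Unc5b against 316 CPM, at 693 CPM with Prom1 against 249 CPM and at 829 CPM with Hcar1 against 195 CPM, and 11, 9 and 12 of the cells with each marker held 3 or more of those UMIs, so these values rest on few cells. The 41 members without Scgb3a1 had more Cldn5, Stmn2, Enpp2 and Eln than the 747 with it, for example 70 Cldn5 UMIs against 166, a log2 ratio of -2.48 (-2.89 to -2.06) for cells with Scgb3a1 over cells without.

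The same gates were applied to the EC-iCOUPOE libraries, which the choice of the members did not use. They found 156 of 3613 blood endothelial cells in the first, or 4.32% (3.68 to 5.03), and 177 of 966 in the second, or 18.3% (15.9 to 20.9). In the second, all 8 epithelial genes were detected in the gated cells. The 2 of them compared were both higher there, with a median log2 ratio of 6.51. Control members showed 2 of these 8 genes. The part of epithelial transcripts in the values of the second library was not tested. With 1 control library the shares could not be tested, and barcodes were shared only between the control and the second EC-iCOUPOE library, at 12, of which 1 was a member. Among the 5661 genes compared in all 3 libraries, 0.283% were at least 2-fold higher in both EC-iCOUPOE libraries and 0.972% at least 2-fold lower. Of the 290 genes higher in the control, 14 were higher in both (4.83%), and of the 152 lower in the control, 36 were lower in both (23.7%). Their median log2 ratios were 1.26, 0.65 and 0.28 for the former and -1.60, -0.87 and -0.80 for the latter, in the control and the first and second EC-iCOUPOE library.

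The 14 genes higher in all 3 libraries were Esm1, Cxcl12, Hey1, Tril, Thrsp, Kctd12b, Plat, Efnb2, Sema7a, Ncoa7, Magix, Lrrc3b, Gm12002 and Ccdc85a. Esm1 had log2 ratios of 3.07 in the control, 3.45 (3.099 to 3.78) in the first and 1.84 (1.52 to 2.16) in the second EC-iCOUPOE library. Hey1 had 1.35, 1.89 (1.42 to 2.34) and 1.33 (0.81 to 1.84). Other genes higher in the control were nearer 0 in the EC-iCOUPOE libraries, where Arap2 had 0.81 and 0.65, Nrp1 0.59 and 0.60, Fabp4 0.26 and 0.04, and Hes1 0.00 and 0.27. The genes lower in all 3 included Ackr1, Ccl21a, Cldn5, Vcam1, Icam1, Timp1, Bgn, Mgp and Ctsh.

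Levels in the gated capillary cells themselves are given side by side. Nr2f2, the induced gene, stood at 40.7 CPM (31.9 to 51.2) in the control, 1394 CPM (1287 to 1507) in the first and 793 CPM (710 to 882) in the second EC-iCOUPOE library. Hey1 stood at 202 CPM (182 to 224), 101 CPM (74.3 to 135) and 118 CPM (87.8 to 156), and Nkx2-3 at 736, 492 and 506 CPM. Hes1, another Notch target gene, stood at 313 CPM (288 to 340), 132 CPM (101 to 170) and 454 CPM (392 to 523). Madcam1 stood at 1081, 1778 and 1623 CPM with all gated cells. With cells of 5 or more Madcam1 UMIs left out of every library, which removed 29, 55 and 54 cells, it stood at 41.7 CPM (32.1 to 53.1), 250 CPM (190 to 323) and 234 CPM (181 to 297), as low levels that this limit itself sets in part. In the same cells Nr2f2 stood at 16.7, 978 and 534 CPM and Hey1 at 227, 172 and 156 CPM. Of the selection markers, Unc5b stood at 290, 68.4 and 33.1 CPM, Prom1 at 167, 26.5 and 28.4 CPM, Hcar1 at 154, 66.2 and 63.9 CPM and Car4 at 174, 181 and 407 CPM. Scgb3a1 stood at 3731, 1522 and 2494 CPM, and with 6693, 690 and 1054 UMIs it gave most of the marker UMIs in each library.

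**Figure D5:**
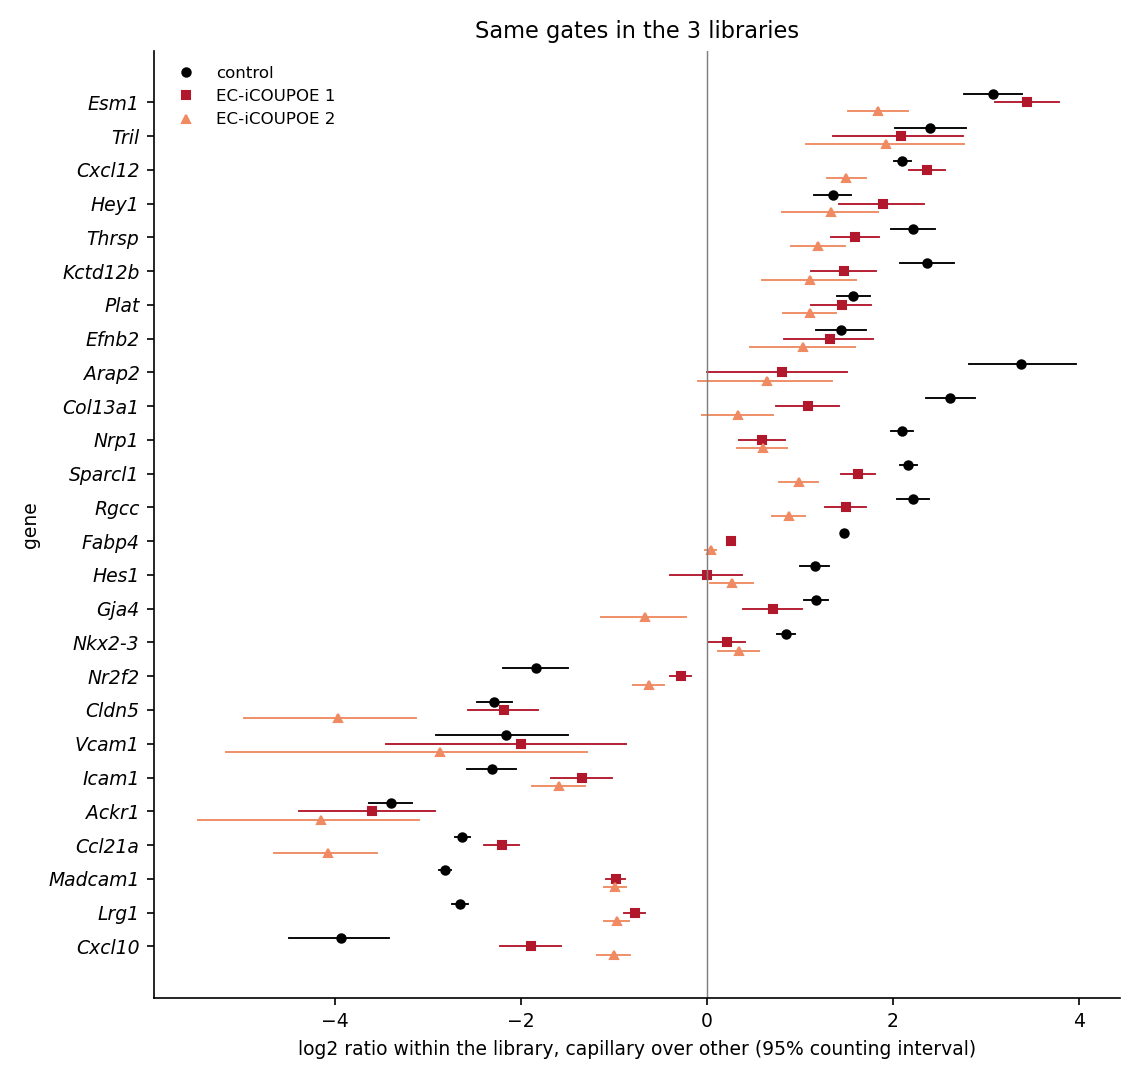
Log2 ratio of gated capillary cells over the other blood endothelium of the same library (x axis) for selected genes (rows) in the control (black circles), EC-iCOUPOE 1 (red squares) and EC-iCOUPOE 2 (orange triangles), with 95% counting intervals as lines. Esm1, Tril, Cxcl12 and Hey1 lie right of 0 and Ackr1, Cldn5 and Vcam1 left of 0 in all 3, while Arap2, Nrp1 and Fabp4 lie nearer 0 in both EC-iCOUPOE libraries.

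Within the control library the cells could be divided by sex-linked transcripts into 544 female and 27 male members, and 246 members had transcripts of neither kind or of both. Of 871 called genes with enough UMIs in female cells, all 871 kept their direction and 796 their 2-fold call. Of 102 in male cells, 101 kept their direction and 82 their call. Nrp1 had log2 ratios of 2.12 in female and 2.53 (1.92 to 3.16) in male cells, Fabp4 1.56 and 1.60, and Hey1 1.62 and 2.42 (1.52 to 3.33). Madcam1 had -2.53 and -6.90 (-8.78 to -5.55). The male members held 4 Madcam1 UMIs in all, and none of the 29 cells with 5 or more was among them. Male and female cells came from different mice, so sex and mouse cannot be told apart here. What set this difference between male and female cells was not tested.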

How the data were processed

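Droplet single-cell libraries of sorted Peyer's patch cells were analysed. The authors deposited raw UMI counts per gene and cell barcode from Cell Ranger on mm10, with version 3.0.2 per the labels and 3.1.0 in the header of 1 EC-iCOUPOE file. No column of other samples was left unused (0). Cells had at least 500 genes and 1000 UMIs and at most 10% mitochondrial UMIs. Blood endothelium had at least 3 UMIs of Pecam1, Cdh5, Egfl7, Emcn and Flt1, more of these than of Col1a1, Col1a2, Dcn, Pdgfra and Lum, and at most 1 of Mmrn1, Reln and Prox1. Counts were pooled per population, and genes with 50 or more UMIs in both together were compared, a 2-fold ratio being called. Ratios had exact conditional, levels exact Poisson and shares Clopper-Pearson 95% intervals. With 1 control library no test was run, and the method was tested on simulated data. Members and gene lists were chosen with earlier results of these data known. Named genes were the 20 leading in each direction by the counting interval bound nearest 0, the gate markers, genes called in the lists and genes that the study names. Of 185 named genes, 145 matched a RefSeq promoter. Some genes are not reported here. Doublets were called with Scrublet in scanpy 1.11.5 and left in. Besides 14 other settings (marker and gate limits, thinning, sex, doublets, weighting, scaling, count minimums), 3 were chosen after seeing the data. Python 3.11.15, numpy 2.4.6, scipy 1.17.1, pandas 2.3.3, matplotlib 3.10.9, R 4.3.3 and edgeR 4.0.16 (TMM only) were used.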

Additional observations from a re-analysis of the deposited data

Results flagged for a closer look

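The direction of 3 genes differed between the libraries: each passed the 2-fold limit upward in the capillary cells of the control and downward in those of the 2 EC-iCOUPOE libraries. This difference was not tested. Hbb-bs, a haemoglobin gene, had log2 ratios of 1.17, -4.37 and -1.77 in the control and the first and second EC-iCOUPOE library, and in the control 2 members held 3197 of the 3212 erythroid UMIs of members and 2 other cells held 5507 of the 5525 elsewhere. Cdh13, a cadherin without a transmembrane domain, had 1.01, -1.90 and -1.25, from 83, 2 and 5 UMIs in the capillary cells. Nfya, a subunit of the CCAAT-binding factor NF-Y, had 1.03, -1.22 and -1.01, from 40, 3 and 5 UMIs.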

How the results depend on the processing

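The 817 members became 968 and 625 with 2 and 5 marker UMIs required, 655 with no UMI allowed in each exclusion gate, 535 after thinning to 1000 UMIs, 27 in male and 544 in female cells. Against 497 genes higher and 496 lower, thinning left 71 and 201 (of 5087 compared), male cells 69 and 94 (of 1049), a minimum of 200 UMIs 229 and 204, and an interval wholly beyond 2-fold 160 and 206. The genes higher were 228 with means over cells, 215 with subsets of equal weight, 274 with TMM and 816 without low-marker cells, and the genes lower were 777 with a minimum of 20 UMIs. Of 2517 values of named genes, 1696 moved by less than their counting interval, 798 moved further and 23 turned direction. In thinned cells these were Slc20a1 (-0.52), Gja4 (-0.19), Slc10a6 (0.0102), Tbx3 (-0.0602), Hbb-bt (-4.49), Hbb-bs (-0.72), Slc7a6os (-0.12), Hba-a1 (-1.02), Rsad2 (-0.30), Slc25a32 (-0.25), Slc38a1 (0.0102) and Pdgfrb (-1.48). In male cells they included Slc30a1 (-1.36), Mgp (1.33), Col18a1 (0.36), Ccl25 (-0.16), Cd74 (1.16) and Gcnt1 (0.16). Of these, Slc30a1 rested on 2 male UMIs in members and 23 elsewhere, with an interval from -4.49 to 0.66. Among 102 called genes with enough UMIs in male cells, 101 kept their direction. Hbb-bs was at -0.00837 without cells of 10 or more haemoglobin UMIs, Apln at 0.41 without low-marker cells, Pdgfrb at -0.00941 with means over cells and Gpihbp1 at -0.18 with subsets of equal weight. Leaving out the 29 members with 5 or more Madcam1 UMIs gave 616 genes higher and 609 lower, and all 976 called genes compared kept their direction. The causes were not tested. Leaving out the low-marker cells, the haemoglobin cells or cells with 5 or more Madcam1 UMIs was chosen after seeing the data. No paired analysis was possible because the labels give the 1 control library no replicate number, which also left no replicate to leave out, and the values within each sex stand in the report. Genes near 50 UMIs have wide intervals, and 1 UMI was 0.557 CPM in members.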
